A study of Mus musculus with 94 samples.

Results

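Among the primary perivascular adipose tissue stem cells (PV-ADSCs) of the mouse periaorta, stromal cells with a high *Cd34* value were compared with stromal cells in which no *Cd34* read was counted. The cells were chosen by their deposited normalized read counts. A cell was taken as stromal at a *Dcn* value of at least 1000 and a *Col3a1* value of at least 100, as Cd34-positive at a *Cd34* value of at least 100, and as Cd34-negative at a *Cd34* value of 0. Of 85 cells with values, 58 were stromal, of which 32 were Cd34-positive, 20 were Cd34-negative and 6 lay between and were left out, so that 52 cells were compared.

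All cells came from one condition, normal adipose tissue around the aorta of c57/bl mice aged 8 weeks, and the labels name no treatment, transgene or control group. They were taken from the collagenase-digested stromal vascular fraction by flow sorting for CD144-/CD45-/CD29+/Sca1+ cells, which leaves out cells bearing VE-cadherin (CD144) or the leukocyte antigen CD45, and were sequenced one cell per library with SMARTseq v4. No animal is named for any cell, so the 52 cells count as 1 sample. Cells are not replicates, and no test between them is given. The spread stated after ± is the SD between cells, and intervals on shares of cells are exact Clopper-Pearson 95% intervals that cover counting error only.

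CD34 is a heavily glycosylated sialomucin of the cell surface. It is best known from blood-forming progenitors and also marks vascular endothelium and the fibroblast-like progenitors of adipose tissue, where it is used, with PDGFRα and Sca-1, to isolate stromal cells that can become adipocytes. Whether stromal cells around the aorta that carry *Cd34* differ in other genes from those that do not is the question this comparison addresses.

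*Cd34* values lay in separate ranges. Just inside the threshold, the lowest value of the 32 Cd34-positive cells was 1414 (1690 recovered reads), and their median was 5774 and their highest 20712. Just outside, the 6 cells between had values of 1.22 to 4.44, which were 2 to 6 reads. No stromal cell lay between 4.44 and 1414. Among the 27 other cells of the table, 2 also had *Cd34* at 4421 and 7981. For the stromal thresholds, the lowest *Dcn* value of a stromal cell was 6521 against 269 for the highest of the other cells, and the corresponding *Col3a1* values were 567 and 87.2. These values chose the cells and are not results.

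**Figure D1:**
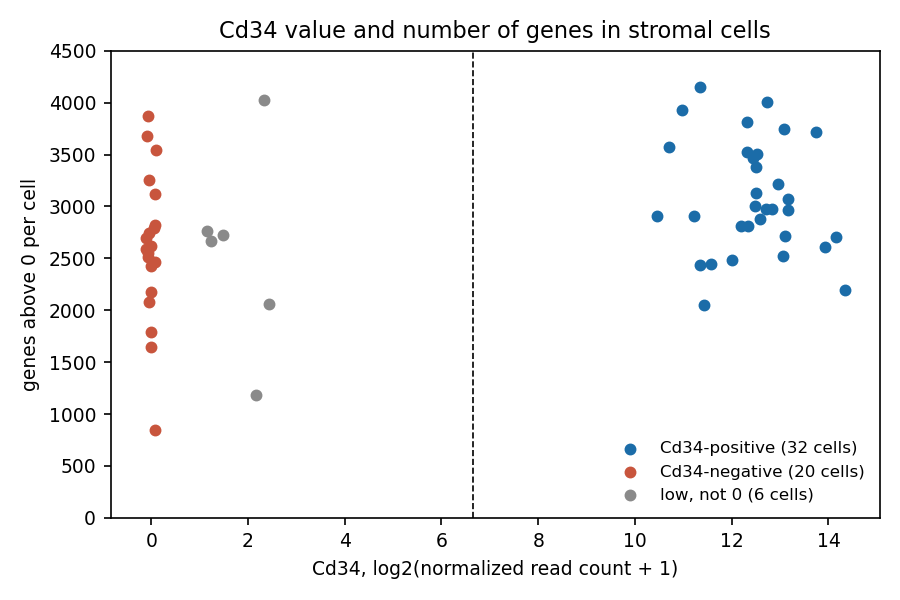
Deposited Cd34 value of each stromal cell, as log2(normalized read count + 1), against the number of genes above 0 in that cell. Points are cells, the dashed line is the threshold of 100, and the 20 points at 0 are spread sideways for visibility. The 32 Cd34-positive cells lie far to the right of the line, and their numbers of genes (2053 to 4148) overlap those of the Cd34-negative cells (850 to 3876).

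The stromal label was checked with 12 other stromal genes (*Col1a1*, *Col1a2*, *Col6a1*, *Col6a2*, *Lum*, *Pdgfra*, *Serpinf1*, *Gsn*, *Mgp*, *Mfap5*, *Fstl1* and *Sparc*). Both groups held a median of 11 of the 12, with 9 to 12 in the Cd34-positive and 3 to 12 in the Cd34-negative cells, against a median of 4 in the other cells. The label did not hold for 1 Cd34-negative cell. It had 3 of the 12 markers, 850 genes, and only 69 *Dcn* and 6 *Col3a1* reads, which the deposited scaling had raised to 6521 and 567, whereas the other compared cells had at least 23227 *Dcn* and 2001 *Col3a1* reads. The rule keeps this cell, and values without it are given beside the main results.

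The groups also differed in measures of library content. Cd34-positive cells had a median of 2976 genes above 0 (2053 to 4148) and Cd34-negative cells a median of 2604 (850 to 3876). After each cell was thinned to the same 1146945 reads, the medians were 2835 and 2492. Median recovered reads were 3.01e+06 and 2.71e+06. Reads on *Rn18s-rs5*, a copy of the 18S ribosomal RNA repeat, took a median of 0.297% of a Cd34-positive cell (highest 2.97%) and 1.12% of a Cd34-negative cell (highest 13.4%). Mitochondrially encoded genes took medians of 2.42% and 4.26%. The part of these measures in the differences between the groups was not tested.

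**Figure D2:**
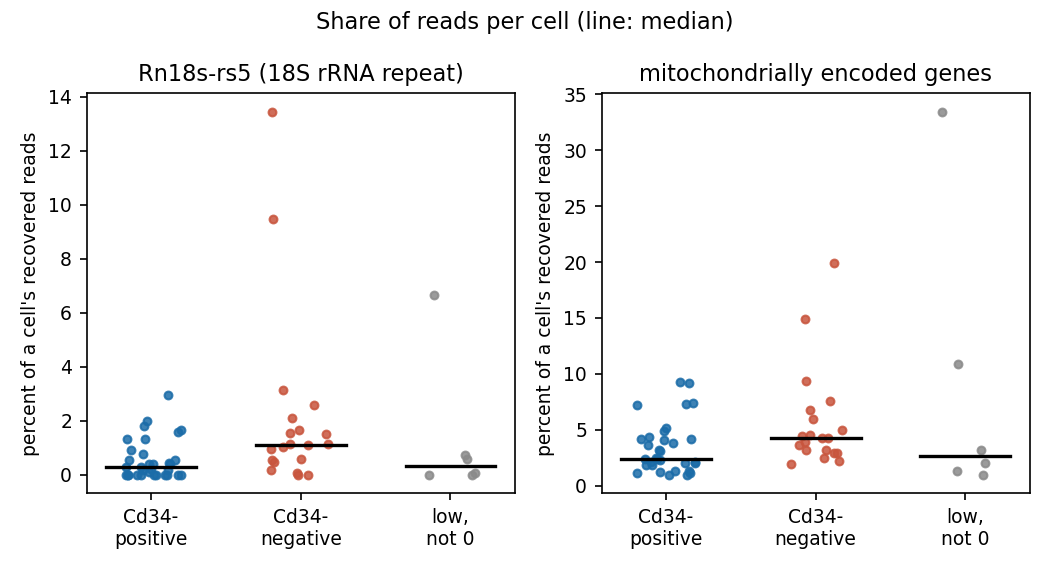
Percent of each cell's recovered reads on Rn18s-rs5 (left) and on all mitochondrially encoded genes (right). Points are cells, lines are group medians, and "low, not 0" marks the 6 cells left out of the comparison. The medians of the Cd34-negative cells, 1.12% and 4.26%, lie above those of the Cd34-positive cells, 0.297% and 2.42%, while most cells of both groups overlap.

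Outside *Cd34*, single genes of mitochondrial respiration, the proteasome and the secretory route (*Coa3*, *Ndufc2*, *Psmb6*, *Tmed10*) had higher means in the Cd34-positive cells, and the secreted matrix proteins *Ctgf* and *Cyr61* had higher means in the Cd34-negative cells. Differences are given as the mean of log2(value + 1) in Cd34-positive cells minus that in Cd34-negative cells, over 4994 genes above 0 in at least 10 of the 52 cells, without *Cd34*, *Dcn* and *Col3a1*. A gene was called at a difference of 3 or more. By this rule 127 genes (2.54% of those compared) were higher and 6 (0.120%) were lower in Cd34-positive cells. The mean was higher in Cd34-positive cells for 66.7% of all genes, and the median difference of all genes was 0.38, so that each value below is read against this shift. Of all calls, 95.5% were higher in Cd34-positive cells. After the median difference was subtracted from every gene, 74 genes were higher and 21 lower (77.9% higher), and in cells with a middle number of genes alone, where 2494 genes passed the same filter of 10 cells, 113 were higher and 66 lower (63.1% higher).

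The spread between cells was wide. Of the 127 higher genes, 14 had a difference above the SD between cells, which had a median of 4.31 over these genes, and none of the 6 lower genes did. Without the cell that held 3 stromal markers, 108 of the 127 stayed at 3 or more and the lowest was 2.57, and the median of all genes was 0.28. Of the genes described first below, *Coa3* was then at 5.15, *Ndufc2* at 5.02, *Tmed10* at 4.84, *Xbp1* at 5.28, *Mmp2* at 3.43, *Cd63* at 3.29, *Ctgf* at -3.84 and *Cyr61* at -3.29. In the 17 Cd34-positive and 9 Cd34-negative cells with a middle number of genes (2518 to 3405), and with no filter applied anew, 124 of the 127 genes were still higher in Cd34-positive cells, 65 of them by 3 or more, and the median difference of all genes there was 0.10.

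A cell at 0 lies far below the others on the log2(value + 1) scale, so the limit for a call favours genes that differ in the share of cells that hold them. The 127 genes were above 0 in a median of 65.6% of the Cd34-positive and 25% of the Cd34-negative cells. For the 124 genes found in both groups, the median difference was 0.91 when only the cells above 0 were counted. The 6 cells with 2 to 6 *Cd34* reads took no part in choosing these genes. Their mean was nearer to the Cd34-negative mean for 76 of the 127 genes, and they held 26 to 89 of the 127 genes per cell (median 60.5), compared with medians of 86.5 in Cd34-positive and 40.5 in Cd34-negative cells.

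**Figure D3:**
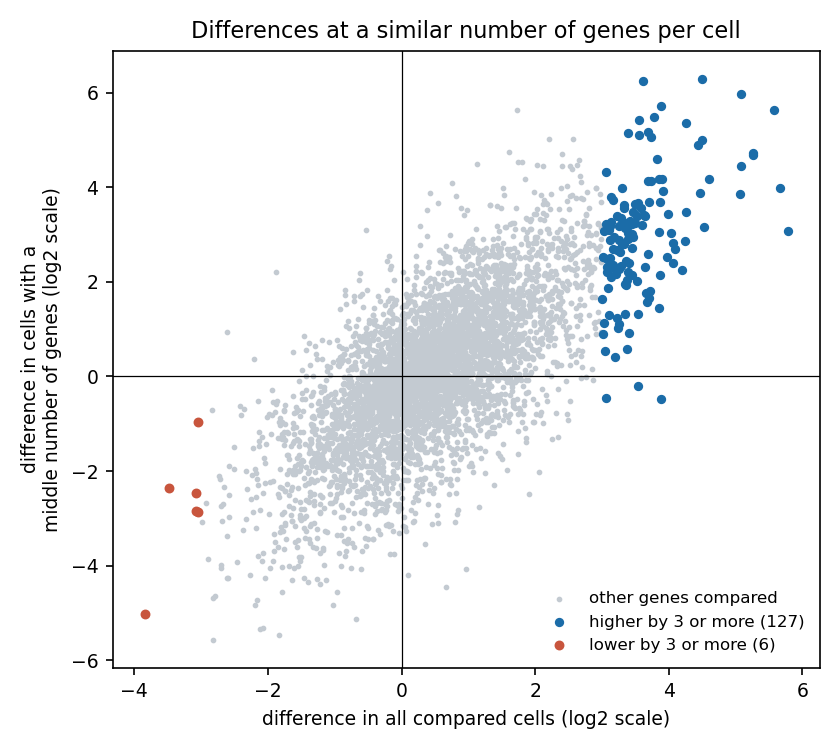
Each gene's difference (Cd34-positive minus Cd34-negative, in mean log2(normalized read count + 1)) in all 52 cells on the x axis and in the 26 cells with a middle number of genes on the y axis. Grey points are other genes, blue points the 127 higher and red points the 6 lower genes. Nearly all blue points lie above 0 on the y axis (124 of 127), and all 6 red points lie below it. The 26 cells are part of the 52 that chose these genes, so this is no independent check.

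Several of the genes with the largest differences serve mitochondrial respiration. The mitochondrial inner membrane passes electrons through complexes I to IV to oxygen, and most of their subunits are encoded in the nucleus. *Coa3*, an assembly factor of cytochrome c oxidase, ranged from 0 to 2272 (median 629) in Cd34-positive cells and from 0 to 1811 (median 0) in Cd34-negative cells. It was above 0 in 25 of 32 (78.1%, interval 60% to 90.7%) and 6 of 20 cells (30%, interval 11.9% to 54.3%), and its means were 7.37 ± 4.27 and 2.10 ± 3.97. Most Cd34-positive cells were high and most Cd34-negative cells at 0, and the ranges overlapped.

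*Ndufc2*, a subunit of complex I, was above 0 in 22 Cd34-positive and 2 Cd34-negative cells, with means of 6.13 ± 4.45 and 1.06 ± 3.27. Its values reached 1697 and 2299, so the few Cd34-negative cells with the transcript were not low in it. *Ndufv2*, another complex I subunit, was found in 18 and 3 cells, a difference of 4.53. *Uqcrc1*, a core protein of complex III, was found in 16 of 32 Cd34-positive cells (50%, interval 31.9% to 68.1%), with a highest value of 1836. It was at 0 in all 20 Cd34-negative cells, for which the exact interval reaches 16.8% and a limit of 3 cells in 20 gives 15%.

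A list of nuclear respiratory chain genes was set up after these values were seen. Beside complexes I to IV it holds ATP synthase genes, such as *Atp5f1*, and some assembly factors. Of its 76 genes compared, 10 were higher by 3 or more, against 2.54% of all genes, and none was lower. The others were *Ndufa4*, *Ndufb3*, *Cox7a2*, *Ndufb10*, *Cox7b*, *Atp5f1* and *Ndufa7*, with differences of up to 3.47. The median difference of the list was 1.54 beside 0.38 for all genes. A higher mean in Cd34-positive cells was found for 62 of the 76 (81.6%, beside 66.7% of all genes). Without the cell of 3 stromal markers 7 genes were higher by 3 or more and the median was 1.39. In cells with a middle number of genes the median was 0.61 beside 0.10.

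Of 13 mRNAs encoded by the mitochondrial genome itself, listed after the values were seen, 6 had a higher mean in Cd34-positive cells (46.2%). For all genes this share was 66.7%. The median difference of the 13 was -0.06, beside 0.38 for all genes. *mt-Co1*, the catalytic subunit of cytochrome c oxidase, stood apart with means of 9.08 ± 6.55 and 3.51 ± 5.37, and was above 0 in 22 of 32 and 7 of 20 cells. *mt-Co2*, a partner subunit in the same enzyme, had a difference of -1.56, with medians of 1453 and 3264. Mitochondrial transcripts have near-identical copies in the nuclear genome, and the single value of *mt-Co1* is uncertain for that reason.

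Proteasome genes, whose products break down ubiquitin-tagged proteins, formed another such group. *Psmb6*, a catalytic subunit of the core particle, was above 0 in 23 Cd34-positive and 7 Cd34-negative cells, with medians of 765 and 0. *Psma3*, a ring subunit of the core, was above 0 in 23 and 8 cells and differed by 4.20. In all, 6 of 36 proteasome genes were higher by 3 or more, beside 2.54% of all genes, the others being *Psma1*, *Psmd6*, *Psma6* and *Psme2*, and none was lower. The list was set up after the values were seen, and its median was 1.23, or 1.39 without the cell of 3 stromal markers, where 6 genes were past 3, and 0.92 in cells with a middle number of genes.

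*Tmed10*, a cargo receptor between the endoplasmic reticulum and the Golgi, was above 0 in 29 of 32 Cd34-positive cells (90.6%, interval 75% to 98.0%) and in 11 of 20 Cd34-negative cells (55%, interval 31.5% to 76.9%). Its medians were 1508 and 6.47 and its means 9.49 ± 3.53 and 4.41 ± 4.74. Only 3 Cd34-positive cells were at 0, against 9 Cd34-negative cells. *Xbp1*, a transcription factor of the unfolded protein response, was above 0 in 24 and 6 cells, with means of 6.97 ± 4.67 and 1.88 ± 3.38. *Tmed5*, of the same family as *Tmed10*, had the higher mean in Cd34-negative cells, with means of 2.94 ± 3.95 and 5.76 ± 4.22. Of 41 genes of translocation and vesicle coats, listed after the values were seen, 5 were higher by 3 or more, beside 2.54% of all genes (*Tmed10*, *Spcs2*, *Tmed4*, *Cope* and *Sec13*) and none was lower, with a median of 1.52, or 1.33 without the cell of 3 stromal markers and 0.71 in cells with a middle number of genes.

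Translation genes were read by compartment. Of 36 mitochondrial ribosome genes, 34 had a higher mean in Cd34-positive cells (94.4%, beside 66.7% of all genes), with a median difference of 1.26. *Mrpl42* (4.25) and *Mrps14* (3.85) were past 3, beside 2.54% of all genes called higher. Of 82 cytosolic ribosome genes, 47 had a higher mean (57.3%, below the 66.7% of all genes) and none was past 3 in either direction. Their median was 0.22, beside 0.38 for all genes. Without the cell of 3 stromal markers the medians were 1.15 and -0.13, and in cells with a middle number of genes 1.10 and -0.47. Both lists were set up after the values were seen.

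**Figure D4:**
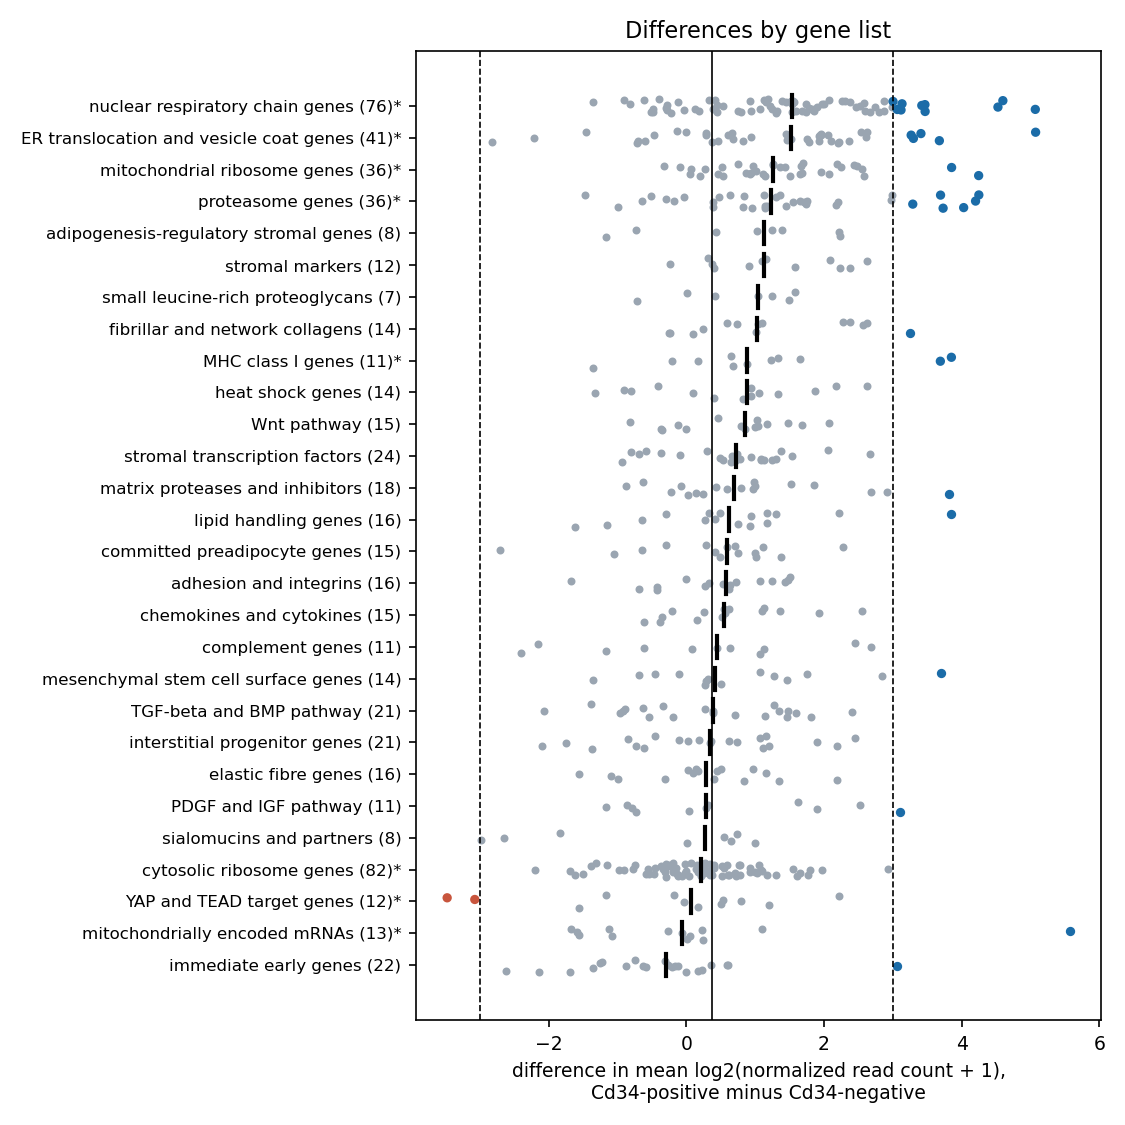
Differences in mean log2(normalized read count + 1), Cd34-positive minus Cd34-negative, of every compared gene in each list with at least 7 such genes. Points are genes, short bars are list medians, the full line is the median of all genes (0.38), dashed lines mark 3 and -3, numbers in brackets count genes, and an asterisk marks lists set up after the values were seen. The nuclear respiratory chain and secretory lists lie furthest to the right (medians 1.54 and 1.52), and immediate early genes furthest to the left (-0.29) in all 52 cells.

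The gene with the largest difference was *Plac9a*, which encodes a small secreted protein. Its median was 970 (0 to 5269) in Cd34-positive and 0 (0 to 4151) in Cd34-negative cells, and it was above 0 in 27 of 32 and 6 of 20 cells. *Plac9b*, a near-identical copy, differed by 3.26 (2.89 without the cell of 3 stromal markers), and reads can be split between the copies, so both values are uncertain. *Park7*, the redox-protective protein DJ-1, was above 0 in 22 and 3 cells, with means of 6.62 ± 4.82 and 0.96 ± 2.56. *Ppp1ca*, a catalytic subunit of protein phosphatase 1, was above 0 in 20 and 3 cells and differed by 5.26. *Anxa4* (4.49), *Brk1* (4.49), *Matr3* (4.47) and *Atraid* (4.26) completed the genes with the largest differences beside *Ctsk*.

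Matrix and surface genes of stromal cells gave 1 call in each of 3 lists, to be read beside 2.54% of all genes. *Mmp2*, a gelatinase that cleaves basement membrane collagen, was above 0 in 31 of 32 Cd34-positive cells, with values of 0 to 11709 and a median of 3013. In Cd34-negative cells it was above 0 in 15 of 20, with values of 0 to 20634 and a median of 1394. Only 1 Cd34-positive cell was at 0, whereas 5 Cd34-negative cells were at 0 and the highest value belonged to a Cd34-negative cell. The means were 11.34 ± 2.32 and 7.52 ± 5.49, and *Mmp2* was the only one of 18 compared matrix proteases and inhibitors past 3.

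*Ctsk*, a collagen-degrading cathepsin, was above 0 in 21 and 6 cells, with means of 6.51 ± 5.18 and 2.07 ± 3.93. *Col5a1*, a chain of the fibril-forming collagen V, had medians of 988 and 31.8 and a difference of 3.26, which was 2.99 without the cell of 3 stromal markers. Of 14 collagens compared, 12 had a higher mean (85.7%, beside 66.7% of all genes), with a median of 1.03, or 0.67 without that cell. *Col6a3* (2.57) and *Col1a2* (2.62) were next, and *Col1a1* was at -0.24. *Igfbp7*, which binds insulin-like growth factors, differed by 3.10, or 2.68 without that cell, and *Igf1* itself by 2.52.

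*Cd63*, a tetraspanin of late endosomes and secreted vesicles, was found in all 32 Cd34-positive cells (26.9 to 19864, median 4646) and in 18 of 20 Cd34-negative cells (0 to 7356, median 791). The Cd34-negative cells spread widely but did not reach the highest Cd34-positive values, and the means were 11.53 ± 2.21 and 7.82 ± 4.61. In cells with a middle number of genes the difference was 1.65. *Cd63-ps*, a processed copy that can take reads from *Cd63*, differed by 3.66. *Cd63* was the only one of 14 compared mesenchymal stem cell surface genes past 3. *Cd81*, another tetraspanin, was at 2.84, *Cd44*, the hyaluronan receptor, at -1.35 and *Thy1* at 0.50.

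Single genes of metabolism and signalling were also past 3, to be read beside 2.54% of all genes. *Angptl4*, a secreted inhibitor of lipoprotein lipase, was above 0 in 18 and 5 cells and differed by 3.85, the only one of 16 lipid handling genes to do so. *Hsd11b1*, which regenerates active glucocorticoid in adipose tissue, was above 0 in 12 of 32 Cd34-positive cells, reaching 43008, and in 1 of 20 Cd34-negative cells, at 1.27. *Vegfa*, the main growth factor of vessels, was above 0 in 19 and 3 cells. The heparan sulphate proteoglycan *Sdc2* was above 0 in 23 and 7 cells. The non-classical MHC class I genes *H2-T23* (3.85) and *H2-T22* (3.69) belong to a family of close copies, and counts of its members are uncertain.

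**Figure D5:**
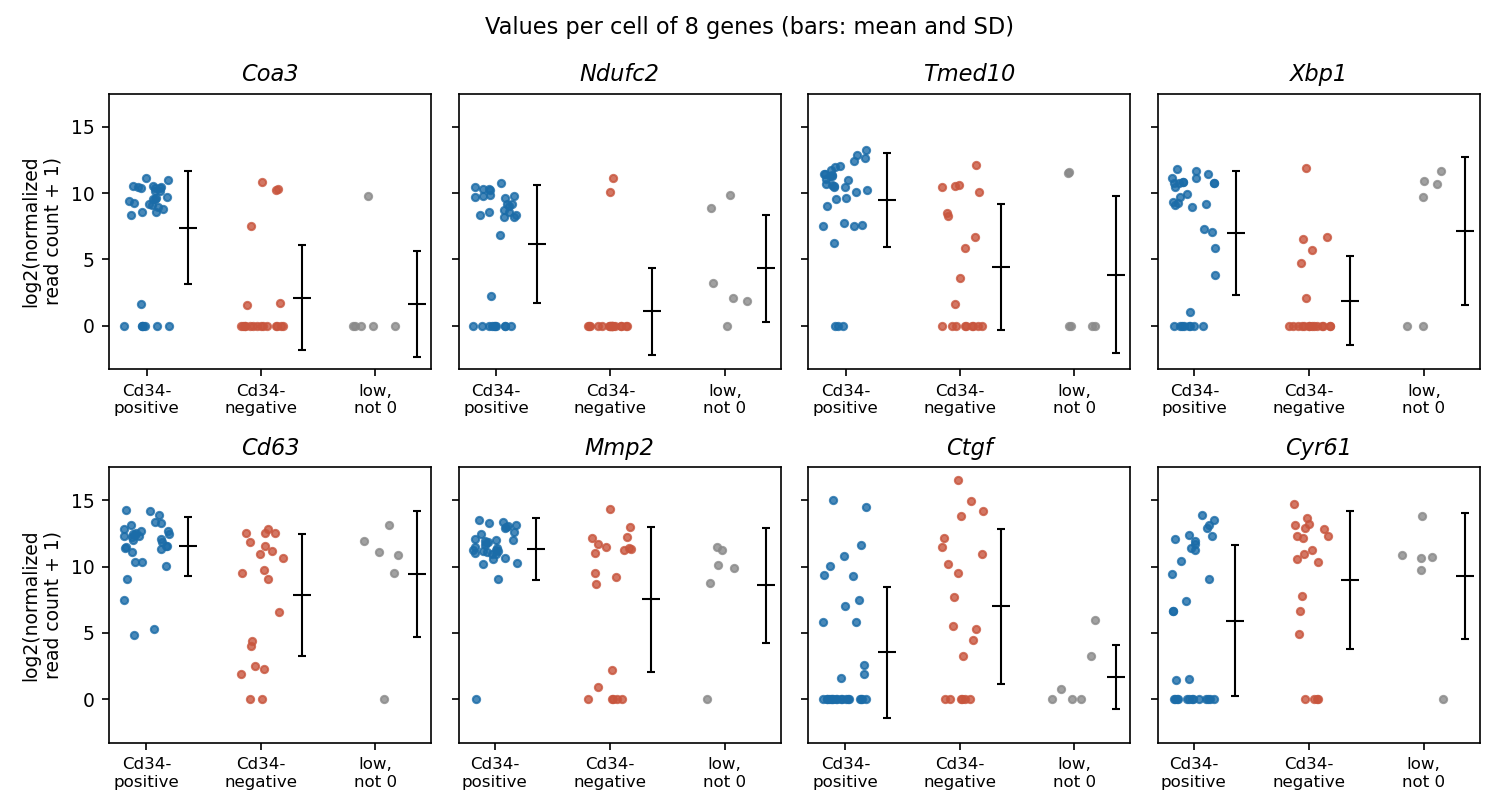
Values per cell of 8 genes as log2(normalized read count + 1) in Cd34-positive, Cd34-negative and the 6 low, not 0 cells. Points are cells, with the mean and SD beside them. Coa3, Ndufc2, Tmed10, Xbp1, Cd63 and Mmp2 have higher means in the Cd34-positive cells and Ctgf and Cyr61 in the Cd34-negative cells, and every gene has cells of both groups at overlapping levels.

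Of the 6 genes lower in Cd34-positive cells, *Ctgf* and *Cyr61* encode secreted matricellular proteins of the CCN family. They are immediate early genes and textbook targets of the YAP and TEAD transcription factors, which respond to tension and stiffness. *Ctgf* ranged from 0 to 34007 (median 0) in Cd34-positive and from 0 to 97277 (median 125) in Cd34-negative cells. It was above 0 in 14 of 32 (43.8%, interval 26.4% to 62.3%) and 14 of 20 cells (70%, interval 45.7% to 88.1%), with means of 3.52 ± 4.92 and 6.995 ± 5.86. Cells of both groups covered nearly the whole range.

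*Cyr61* was above 0 in 19 and 16 cells, with medians of 100.9 and 2209 and means of 5.91 ± 5.71 and 8.98 ± 5.18. In cells with a middle number of genes the differences were -2.35 for *Ctgf* and -2.47 for *Cyr61*. Of 12 YAP and TEAD target genes, listed after the values were seen, *Ctgf* and *Cyr61* were the only ones past 3 in either direction. This is read beside 2.54% of all genes called higher and 0.120% called lower. A higher mean in Cd34-positive cells was found for 6 of the 12 (50%, beside 66.7% of all genes). Their list had a median of 0.07, beside 0.38 for all genes. The median of the list was -1.27 in cells with a middle number of genes. *Amotl2* was at 0.17, *Lats2* at 0.51 and *Axl* at 0.80.

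The other lower genes were *Rn18s-rs5*, whose share of reads is given above, *Snx5*, an endosomal sorting nexin, *Ifi211*, an interferon-inducible gene, and *RP23-325D10.3*. *Rn18s-rs5* had means of 9.59 ± 6.59 and 13.43 ± 4.84, but it is one of many near-identical repeats and was counted in libraries primed on polyadenylated RNA. *Snx5* was above 0 in 4 of 32 and 9 of 20 cells, and *RP23-325D10.3* in 3 and 9. *Ifi211* and its close copy *Ifi205* differed by -3.05 and -2.68 and can share reads. Without the cell of 3 stromal markers *Ifi211* was at -2.86, and *Nfkbiz* (-3.32), *Tsc22d2* (-3.15), *Tor1aip1* (-3.13), *Dag1* (-3.12) and *Eif3f* (-3.01) passed the limit, which made 10 lower genes.

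Immediate early genes, which are switched on within minutes of a stimulus and by tissue digestion, had the lowest median of the lists with at least 7 genes when all 52 cells were compared. In cells with a middle number of genes their median was -0.84, and those of the YAP and TEAD targets (-1.27) and the sialomucins (-1.06) were lower. Of the 22 compared, among which the list does not count *Ctgf* and *Cyr61*, 6 had a higher mean in Cd34-positive cells, against 66.7% of all genes, and the median was -0.29, or -0.65 without the cell of 3 stromal markers. *Ier3* was at -2.62, *Socs3*, a feedback inhibitor of cytokine signalling, at -2.14, *Dusp1* at -1.69 and *Fosb* at -1.35. *Fos* was the one member of this list past 3, beside 2.54% of all genes called higher. Its medians were 18025 and 8762 and its means 12.47 ± 4.87 and 9.41 ± 6.53. Its difference was 2.57 without that cell and -0.46 in cells with a middle number of genes.

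*Cyr61* and *Fos* differed in opposite directions, and their promoters are printed to show what the windows share. The sequences are the 250 bases before the start that RefSeq gives on GRCm38.p6, which is not the build the authors aligned to. The *Cyr61* window (RefSeq symbol Ccn1) is chr3:145649986-145650235 on the minus strand, and the *Fos* window chr12:85473640-85473889 on the plus strand. Capitals mark TATAAA on the printed strand, and CATTCC (the core of the TEAD site) and GGGCGG (the GC box) on either strand.
Cyr61: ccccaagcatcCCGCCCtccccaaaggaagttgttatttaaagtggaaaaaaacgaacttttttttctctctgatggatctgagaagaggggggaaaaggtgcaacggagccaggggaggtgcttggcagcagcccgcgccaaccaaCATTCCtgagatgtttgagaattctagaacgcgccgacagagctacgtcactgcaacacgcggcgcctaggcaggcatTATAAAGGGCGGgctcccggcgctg
Fos: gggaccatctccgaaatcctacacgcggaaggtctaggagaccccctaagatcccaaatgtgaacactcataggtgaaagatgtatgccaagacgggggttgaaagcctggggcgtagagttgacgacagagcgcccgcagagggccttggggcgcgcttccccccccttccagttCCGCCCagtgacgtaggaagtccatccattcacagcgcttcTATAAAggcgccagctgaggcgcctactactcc
Positions are counted from -1, the base before the start. Both windows hold a TATAAA, which begins at -25 in *Cyr61* and at -33 in *Fos*, and a GC box. CATTCC was found in *Cyr61*, at -103, and not in this window of *Fos*. It occurs in 12.6% of all 32851 promoters of this length.

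Of the 133 called genes, 98 higher and 3 lower ones had a promoter entry. For a called gene with several starts, only the first listed start was counted. Of the 98, 47 held a GC box (48%), compared with 61.8% of the 3130 compared genes with an entry and 32.7% of all promoters. TATAAA was held by 3 of the 98 (3.06%), compared with 4.35% and 7.59%. CATTCC was held by 8 of the 98 (8.16%), compared with 10.3% and 12.6%. These are matches of letters and not sites.

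Genes by which stromal progenitors are usually divided were read as 2 lists, beside 2.54% of all genes called higher and 0.120% called lower. Of 21 interstitial progenitor genes none was past 3 in either direction, and the median difference was 0.35 beside 0.38 for all genes. Without the cell of 3 stromal markers it was 0.23 beside 0.28, and in cells with a middle number of genes it turned to -0.50 beside 0.10. *Pi16*, a surface marker of universal fibroblasts, was above 0 in 26 and 15 cells and at 100 or more in 22 of 32 Cd34-positive cells (68.8%, interval 50% to 83.9%) and 13 of 20 Cd34-negative cells (65%, interval 40.8% to 84.6%). *Dpp4* was above 0 in 13 and 11 cells and *Cd248* in 28 and 18. *Cd55*, a complement regulator, had the highest difference of the list, 2.45, and the hyaluronan synthase *Has1* the lowest, -2.09.

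Of 15 committed preadipocyte genes none was past 3, with a median of 0.59. *Cebpb*, an early adipogenic transcription factor, was above 0 in 24 and 18 cells with medians of 6.42 and 368, a difference of -2.71. *Lpl* was above 0 in 31 and 17 cells and differed by 0.75, and *Col15a1* differed by 2.28. The 8 compared adipogenesis-regulatory stromal genes had a median of 1.14, led by *Mgp* (2.23) and *F3* (2.21).

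*Pdgfra*, the general receptor of adipose stromal cells, was above 0 in 28 of 32 (87.5%) and 17 of 20 cells (85%), and *Pdgfrb*, which is also used for mural cells, in 12 (37.5%, interval 21.1% to 56.3%) and 6 (30%, interval 11.9% to 54.3%). The lists that follow are read beside 2.54% of all genes called higher and 0.120% called lower. The TGF-β and BMP pathway had no member past 3 among 21. Its median was 0.39 beside 0.38 for all genes, or 0.23 beside 0.28 without the cell of 3 stromal markers. The widest were *Tgfbi* (2.40), a matrix protein induced by TGF-β, and *Skil* (-2.06), a SMAD repressor. Of 15 Wnt pathway genes none was past 3, with *Ctnnb1* highest at 2.07. Among 24 stromal transcription factors none was past 3, and *Foxo1* (2.67) and *Klf9* (2.06) were highest. Complement genes spread from *C3* at -2.40, which was found in all 20 Cd34-negative and 29 of 32 Cd34-positive cells, to its pathway inhibitor *Serping1* at 2.68.

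Partners of CD34 were read as a list of sialomucins, the enzymes of their sugars and the proteins that tie them to actin. Of 8 compared none was past 3, beside 2.54% of all genes called higher and 0.120% called lower. The median was 0.28 beside 0.38 for all genes. It turned to -1.06 beside 0.10 in cells with a middle number of genes. *Msn*, the moesin that anchors sialomucin tails, was above 0 in 13 Cd34-positive and 15 Cd34-negative cells and differed by -2.98. *C1galt1*, which builds the core 1 O-glycan, differed by -2.66 and *Rdx*, the related radixin, by -1.83. *Ezr* was at 0.00, and *Cd164*, another sialomucin, at 0.74. *Msn* was at -3.07 in the cells with a middle number of genes.

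Genes of the sort gate were found in both groups. *Ly6a*, which encodes Sca-1, was above 0 in 31 of 32 (96.9%, interval 83.8% to 99.9%) and 16 of 20 cells (80%, interval 56.3% to 94.3%), with medians of 9123 and 9040. *Itgb1*, which encodes CD29, was above 0 in 20 and 12 cells and differed by 0.27. *Cdh5*, which encodes the excluded VE-cadherin, was above 0 in 2 and 5 cells and at 100 reads in none of them.

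Markers of other cell types were read as whole lists. CD34 is also an endothelial antigen. At least 1 of 15 endothelial markers was above 0 in 26 of 32 Cd34-positive and 17 of 20 Cd34-negative cells, *Eng* in 11 and 2 and *Pecam1* in 7 and 7. The summed level of the list ranged from 0 to 953 CPM (median 4.27) in Cd34-positive and from 0 to 14184 CPM (median 12.8) in Cd34-negative cells, compared with a median of 9586 CPM in the 27 other cells. No Cd34-positive cell and 1 Cd34-negative cell held at least 3 of them at a value of 100, and without that cell 158 genes were higher and 7 lower. *Tie1* and *Erg* were at 0 in all compared cells.

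Mural markers were found in 8 and 2 cells, mainly *Abcc9* (5 and 2), while *Rgs5* and *Mcam* were at 0 in both groups. Immune markers were found in 1 and 3 cells and Schwann cell markers in 5 and 3, and the 1 adipocyte marker in the table, *Adipoq*, in none. *Wt1*, of the mesothelial list, was above 0 in 13 of 32 (40.6%, interval 23.7% to 59.4%) and 6 of 20 cells (30%, interval 11.9% to 54.3%). It was at a value of 100 or more in 13 and 3 cells (15%, interval 3.21% to 37.9%). Counted instead at 100 or more recovered reads, it was found in 12 and 5 cells, so this gap depends on the scaling. *Msln* and *Upk3b*, which define mesothelium, were at 0 in all Cd34-positive cells and above 0 in 1 Cd34-negative cell each. No Cd34-positive cell and 1 Cd34-negative cell held at least 3 of the 6 mesothelial markers at a value of 100. Of the 6 cells left out, 1 did so too. The Cd34-negative cell was kept, and the groups were not compared without it. The part of these cells in the differences was not tested.

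Cells with any Y-linked gene made up a larger share of the Cd34-positive cells. At least 1 of *Ddx3y*, *Eif2s3y*, *Kdm5d* and *Uty* was above 0 in 21 of 32 (65.6%, interval 46.8% to 81.4%) and 8 of 20 cells (40%, interval 19.1% to 63.9%). *Ddx3y*, an RNA helicase, alone was above 0 in 19 and 5 cells. Its difference was 2.36, or 1.21 in cells with a middle number of genes. *Kdm5d* was above 0 in 7 and 0 cells and *Uty* in 3 and 2, whereas *Eif2s3y* was above 0 in 1 and 3. Over all genes compared, the share of cells above 0 was higher in Cd34-positive cells by a median of 6.88 percentage points per gene. The part of the larger number of genes per Cd34-positive cell in the Y-linked shares was not tested. As the animals are not named, a difference between animals and one between *Cd34* groups cannot be told apart.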

How the data were processed

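Primary PV-ADSCs were sequenced as 94 single cells, of which 85 have values in the deposited table and 9 are not analysed here. Reads were assessed by the authors with FastQC, placed on the mm9 genome by HISAT2 2.0.5, sorted by SAMtools 1.4 and assembled by StringTie 1.3.3, and scater served for the choice and scaling of cells. The counting program is not given in the sources used here. The deposited values are a normalized signal, read counts per gene after scaling by the authors. The paper's main methods name scater's default scaling and mention no factors by group of genes, which the values hold. Values of 10665 genes, 9942 of them found in fewer than 10 cells, were whole numbers, and those of the other 5404 were whole reads times a factor for the cell and 1 of 13 groups of genes. Dividing by these factors gave whole reads for all but 3 of 144272 values (relative tolerance 2e-09, absolute tolerance 1e-08), and the factors ran from 0.0157 to 94.5, which affects low values most. Recovered reads per cell ranged from 1.15e+06 to 4.78e+06 in the compared cells. The procedure was chosen after seeing the values. No column of the table was left unmapped.

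The cells, gene lists and thresholds were chosen with earlier results of these data known, and 8 further lists were set up after the values of this comparison were seen. All cells form 1 sample, so no test was run. Genes above 0 in at least 10 compared cells were compared by the mean of log2(value + 1), and 3 was the limit for a call. Because the 1 added to each value sets how far a cell at 0 lies below the others, a difference mixes the share of cells and their level and is no fold change. Named were the genes of the sort gate, every member of a list past 3 or else up to 3 with the highest and lowest differences, and the 15 highest and 15 lowest of all genes. Further genes were named after their values were seen. Promoters came from RefSeq on GRCm38.p6, with older symbols matched through its synonyms. The scripts ran under Python 3.11.15 with pandas 2.3.3, numpy 2.4.6 and scipy 1.17.1 and were tested on simulated data. Alternatives changed the *Cd34* limit, the pseudocount, the filter on low values, the limit for a call, the scaling, the depth and the cells.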

Additional observations from a re-analysis of the deposited data

How the results depend on the processing

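No paired analysis was possible because all cells form 1 group. The 127 higher and 6 lower genes became 94 and 5 when the 6 cells between were counted as Cd34-positive (88 and 3 shared), and 100 and 4 among genes above 0 in at least 20 cells. With no filter on low values they were 127 and 6, and a *Cd34* limit of 1000 chose the same cells and is no check. With a pseudocount of 10 they were 15 and 1, at a limit of 2 they were 466 and 70, and by a difference of 30 percentage points in the share of cells 241 and 26. On CPM of recovered reads the counts were 58 and 1, and on reads thinned to one depth 59 and 1, of which 57 and 58 higher genes were among the 127. In cells with a middle number of genes they were 113 and 66 of 2494 genes that passed the filter there, of which 52 and 1 were among the first calls and where 63.1% of calls were higher in place of 95.5%, and *Fos* reversed to -0.46. Alternatives chosen after seeing the data gave 89 and 26 in cells with at least 2000 genes (77.4% higher), 98 and 37 without the 2 Cd34-positive and 5 Cd34-negative cells with over 2% of reads on *Rn18s-rs5* (72.6%), 110 and 10 without the cell of 3 stromal markers (91.7%), and 74 and 21 after subtracting the median difference (77.9%). Of the 127 higher genes, 100 passed the filter of 20 cells, and these had the higher mean in Cd34-positive cells there. In cells with a middle number of genes and no filter, all of the 127 but *Fos*, *Srsf3* and *Sri* did. All 127 did in each other setting, but these settings reuse cells that chose the genes. The cause of the changes in the counts was not tested. The 52 cells and the wide intervals of their shares limit what can be seen to large differences.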

Other observations

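Transcript length was set beside the differences, with GENCODE M21 lengths for 4932 of the 4994 genes. The 127 higher genes had a median length of 1462 bases, compared with 1920 for all genes compared. Split by length into 4 bins of 1233 genes, the median differences from shortest to longest were 0.28, 0.72, 0.41 and 0.20, and 28, 60, 29 and 10 genes were higher by 3 or more.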
